A study of Mus musculus with 4 samples.

Results

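Voltage-gated calcium channels open when a neuron depolarises and let calcium in, which triggers transmitter release at the terminal and calcium signalling in dendrites and the cell body. Each high-voltage-activated channel is built on 1 alpha1 subunit, a large membrane protein that forms the pore and carries the voltage sensor. It works with an intracellular beta subunit, which promotes its folding and passage to the membrane, and an extracellular alpha2delta subunit, which raises its density at the surface and at release sites. The mRNAs of 10 such subunits were followed here, found by gene symbol among 31053 genes in the count tables. These members were chosen with earlier results of these data known. They comprised 4 pore-forming genes (Cacna1a, Cacna1b, Cacna1c and Cacna1e) and 6 auxiliary genes, of which 3 encode alpha2delta subunits (Cacna2d1, Cacna2d2 and Cacna2d3) and 3 encode beta subunits (Cacnb1, Cacnb3 and Cacnb4). All 10 were in the tables and all 10 passed the filter on low counts, among 12336 genes tested.

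The samples were primary cortical neurons of WT mice, which the study cultured from E18 C57BL/6J embryos with floxuridine to hold back dividing cells. Enhanced crosslinking and immunoprecipitation (eCLIP) pulls down RNA held by a protein, here the ribosomal protein RPS2 of the 40S subunit. It gave 2 IP libraries, and 2 total RNA libraries came from the same samples before the pulldown. By the labels only the IP had rRNA depletion, and the methods do not say which libraries had it, so if the labels hold, effects of depletion and of IP cannot be told apart. Dividing IP by total RNA counts served the study as a readout of ribosome occupancy, and the question here is how pore and auxiliary subunit mRNAs compare in level and in that ratio.

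Pore and beta subunits meet at the alpha interaction domain, a short intracellular stretch between the first and the second membrane domain of the alpha1 subunit to which the beta subunit binds. Its coding sequence is shown for the 4 pore-forming members, as the part of each pore mRNA that encodes the contact with beta subunits. The extracellular alpha2delta subunits do not bind there. Capitals mark the codons of a tyrosine and a tryptophan known to matter for that contact. Sequences were read 5′ to 3′ from the GENCODE M21 transcripts, on the coding strand, and coordinates are on mm10 (GRCm38).
Cacna1a: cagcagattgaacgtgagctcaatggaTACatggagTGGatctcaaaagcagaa
Cacna1b: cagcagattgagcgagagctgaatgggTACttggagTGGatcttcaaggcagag
Cacna1c: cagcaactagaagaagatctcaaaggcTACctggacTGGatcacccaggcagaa
Cacna1e: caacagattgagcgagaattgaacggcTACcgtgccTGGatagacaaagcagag
The 54-base stretch lies at chr8:84536125-84536403 on the plus strand in Cacna1a, at chr2:24719100-24719992 on the minus strand in Cacna1b, at chr6:118734906-118734959 on the minus strand in Cacna1c and at chr1:154488837-154493353 on the minus strand in Cacna1e. It is split over 2 coding exons in each of these genes except Cacna1c, where it lies in 1. Cacna1a and Cacna1b shared 45 of the 54 bases, the closest pair, and Cacna1c and Cacna1e shared 34, the most distant.

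The pore genes lie on mm10 at chr8:84388440-84640246 (Cacna1a, plus strand), chr2:24603887-24763152 (Cacna1b, minus), chr6:118587240-119196418 (Cacna1c, minus) and chr1:154390731-154884501 (Cacna1e, minus). The alpha2delta genes lie at chr5:15934691-16374511 (Cacna2d1, plus), chr9:107399612-107529343 (Cacna2d2, plus) and chr14:28904943-29721864 (Cacna2d3, minus). The beta genes lie at chr11:98001508-98023034 (Cacnb1, minus), chr15:98630840-98644529 (Cacnb3, plus) and chr2:52428320-52676831 (Cacnb4, minus), so no 2 members are neighbours.

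Library totals lay between 4899718 and 16460545 counts, of which 1 gene, Gm42418, took 15.3% to 42.6%. The 10 members together held 28469 and 17905 counts in IP replicates 1 and 2, and 11340 and 11887 counts in total RNA replicates 1 and 2. The least counted member, Cacna2d2, still had 230 to 740 counts per library. No member shared exonic bases with another gene on its strand, and none held an annotated small RNA in its exons. Exons of Cacna1a overlap an antisense gene over 435 bases and those of Cacna2d2 over 82, but the counting used strand. All 10 neuronal markers checked were tested, with a summed level of 4385 to 4943 CPM (counts scaled to a common effective library size) across the libraries. The 6 astrocyte markers summed to 605 to 1859 CPM, the 8 of the oligodendrocyte lineage to 66.3 to 88.9, the 6 of microglia to 4.92 to 60.3, and the 6 of endothelial cells and fibroblasts to 2.87 to 16.4, of which Cldn5 was at 0 in every library. The 3 markers of dividing cells summed to 0.269 to 2.45 CPM.

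Levels were compared between subunits per length, as CPM per kilobase of annotated exon. Cacna1a, the pore of P/Q-type channels that drive release at most fast central synapses, was the most abundant. It measured 90.2 and 58.2 CPM per kb in total RNA replicates 1 and 2, and 61.1 and 41.9 in the IP. Cacna1b, the pore of presynaptic N-type channels, came second per kb, at 33.3 and 29.6 in total RNA and 25.6 and 21.96 in the IP. On the per kb scale these places were the same in all 4 libraries, and the total RNA ranges of neither overlapped that of the next subunit.

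The other pores lay further down the order per kb, Cacna1e in its middle and Cacna1c near its end. Cacna1e, the pore of R-type channels, measured 13.8 and 11.3 CPM per kb in total RNA and 13.6 and 9.24 in the IP. Cacna1c, the pore of the L-type channels that couple depolarisation to gene expression, measured 9.81 and 6.08 in total RNA and 7.72 and 4.67 in the IP. The level of the pore-forming genes per length thus spanned from 74.2 ± 22.6 (Cacna1a, total RNA mean ± SD, n = 2) to 7.95 ± 2.64 CPM per kb (Cacna1c).

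Auxiliary subunits lay in a narrower band. Among the beta subunits, Cacnb3 was at 20.4 ± 3.25 CPM per kb in total RNA (mean ± SD, n = 2), Cacnb1, which also serves the skeletal muscle channel, at 19.4 ± 0.919, and Cacnb4, the gene mutated in the ataxic lethargic mouse, at 9.12 ± 0.829. Among the alpha2delta subunits, Cacna2d3 was at 16.4 ± 0.573, Cacna2d1, a binding site of gabapentin, at 12.1 ± 0.0211, and Cacna2d2, to which gabapentin also binds, at 5.82 ± 1.51. The ranges of the total RNA libraries overlapped between Cacnb3 and Cacnb1, Cacna1e and Cacna2d1, Cacnb4 and Cacna1c, and Cacna1c and Cacna2d2, so these neighbours were not ordered beyond their spread. The other 5 pairs of neighbours did not overlap and kept their order in all 4 libraries. Exonic length joins every annotated transcript, so long or poorly used exons, as in Cacna1e with 25228 exonic bases, lower a level per kb. They do so unequally. The joined exons and the principal annotated transcript have 21191 and 6585 bases in Cacna1c, 8720 and 3695 in Cacna2d3, but 9942 and 9655 in Cacna1b. The order per kb, with the places of Cacna1b and Cacna1c, therefore holds for joined exons only and was not tested per principal transcript. In CPM not divided by length only 2 of the 10 members kept their place, and the 4 pores had the highest means in total RNA, with 847 CPM for Cacna1a, 317 for Cacna1e, 312 for Cacna1b and 168 for Cacna1c, against 150 for Cacna2d1, the next. On that scale Cacna1e lay above Cacna1b in replicate 1 of total RNA and in both IP libraries, and below it in replicate 2 of total RNA.

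**Figure D1:**
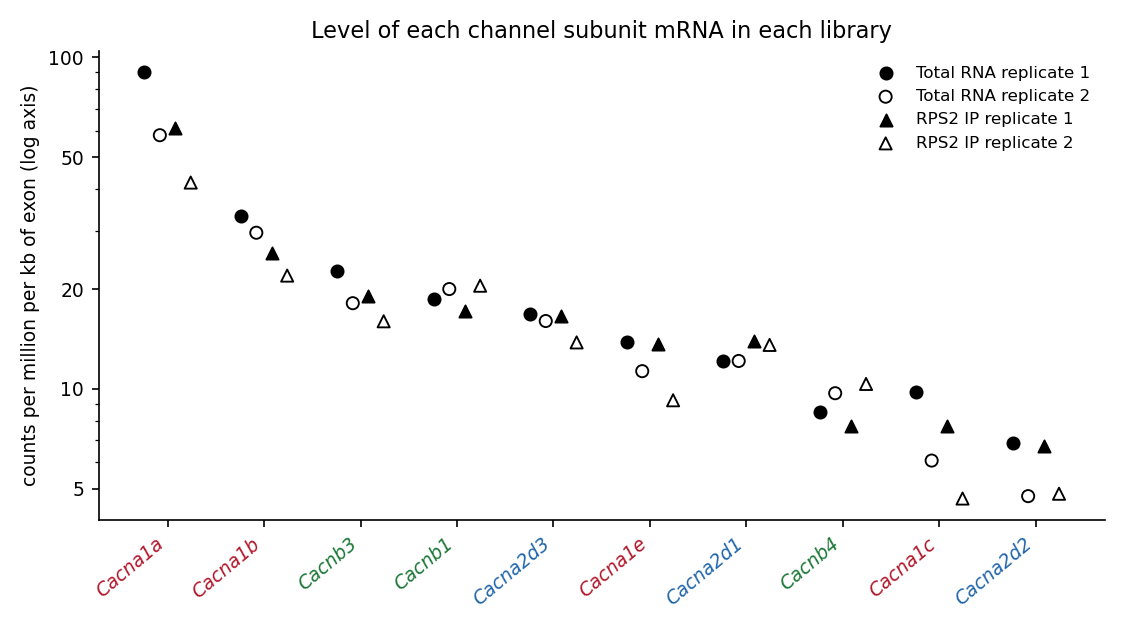
Level of each subunit mRNA in CPM per kilobase of exon (log axis) in each of the 4 libraries, ordered by the mean in total RNA; circles are total RNA, triangles RPS2 IP, filled symbols replicate 1 and open symbols replicate 2. Names are red for pore, blue for alpha2delta and green for beta subunits; Cacna1a and Cacna1b lie above all others in each library, and both IP symbols of Cacna1b lie below both total RNA symbols.

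The summed level of the 4 pore genes was 147 and 105 CPM per kb in total RNA replicates 1 and 2, and 108 and 77.8 in the IP. That of the 3 beta genes was 49.96 and 47.8 in total RNA and 44.0 and 46.8 in the IP, and that of the 3 alpha2delta genes was 35.8 and 32.9 in total RNA and 37.2 and 32.2 in the IP. Pores therefore made up 63.2% and 56.6% of the summed level of the 3 classes in total RNA, and 57.1% and 49.6% in the IP. The pore share was lower in the IP within each replicate number, although the IP of replicate 1 lay above the total RNA of replicate 2.

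Subunits differed between the replicates as well, and in most of them by more than between IP and total RNA. In total RNA, Cacna1c was lower in replicate 2 than in replicate 1 by a log2 difference of -0.69, Cacna1a by -0.63 and Cacna2d2 by -0.53, and the IP gave -0.72, -0.55 and -0.47 for the same genes. Cacnb4 went the other way, by 0.19 in total RNA and 0.42 in the IP, as did Cacnb1, by 0.097 and 0.26. Altogether 7 of the 10 members were higher in replicate 1 in both kinds of library, 2 were higher in replicate 2, and Cacna2d1 differed by 0.0036 in total RNA and -0.038 in the IP. Across all genes tested 38.4% were higher in replicate 1 in both kinds.

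Markers of other cell types moved with the replicates. All 5 astrocyte markers tested were higher in replicate 1 in both kinds of library, with sums of 1571 and 605 CPM in total RNA replicates 1 and 2 and 1859 and 633 in the IP. Gfap, the astrocyte filament protein, measured 677 and 114 CPM in total RNA. The 6 microglial markers summed to 60.0 and 4.92 CPM in total RNA, and to 60.3 and 6.82 in the IP. The 10 neuronal markers summed to 4385 and 4943 CPM in total RNA and to 4793 and 4638 in the IP, so the sums went opposite ways. Single markers were mixed: 2 of the 10 were higher in replicate 1 in both kinds of library, while others, such as Tubb3 and Gad1, were higher in replicate 2 in both. The part of these cell types in the subunit differences was not tested. In bulk libraries, fewer cells of a type and less RNA per cell cannot be told apart.

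**Figure D2:**
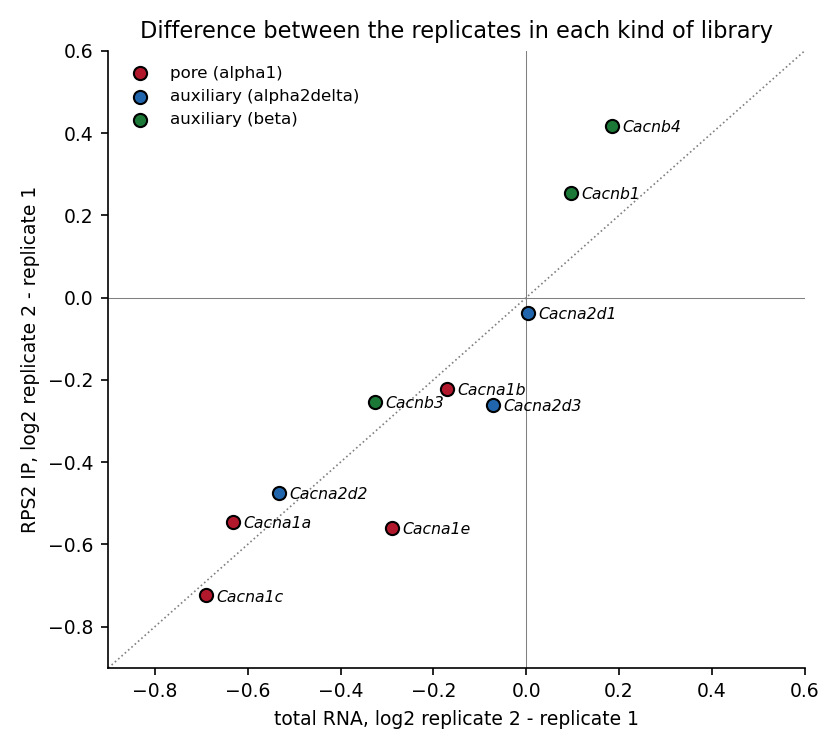
Log2 difference in CPM of replicate 2 minus replicate 1 for each subunit mRNA, in total RNA (x axis) and in the RPS2 IP (y axis); the dotted line marks equal differences. Points follow the line from Cacna1c at -0.69 and -0.72 to Cacnb4 at 0.19 and 0.42, so the kinds of library of one replicate number moved together.

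Among the pore-forming mRNAs, Cacna1a, Cacna1b and Cacna1c fell in the IP relative to total RNA, and no auxiliary mRNA was called. Of the 4 pore genes 3 fell in the IP and 0 rose, whereas of the 6 auxiliary genes 0 fell and 0 rose, in edgeR's quasi-likelihood test with the replicate number as a block at an adjusted p under 0.05. Over all genes tested 7.55% were called lower and 6.63% higher, or 14.2% in either direction. Cacna1a fell by 30.15%, Cacna1b fell by 24.4% and Cacna1c fell by 22.2%. With IP and total RNA as unpaired groups edgeR called 0 of the 10 members, 0 of them at an unadjusted p under 0.05 either, and 0 genes over the whole table, where 349 had an unadjusted p under 0.05.

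Cacna1a measured 698 and 478 CPM in the IP and 1030 and 664 CPM in total RNA of replicates 1 and 2. Within each replicate the IP was lower, but IP replicate 1 lay above total RNA replicate 2, so the groups overlapped. In the paired test its log2 fold change was -0.52 ± 0.10 (SE, adjusted p 1.3e-05), and the log2 ratio was -0.56 in replicate 1 and -0.47 in replicate 2. In unpaired fits it was -0.83 without IP replicate 1, -0.28 without IP replicate 2, -0.18 without total RNA replicate 1 and -0.81 without total RNA replicate 2. Such fits leave a library without its partner, so the difference between the replicates enters the fold change.

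Cacna1b measured 255 and 218 CPM in the IP and 331 and 294 CPM in total RNA. Neither IP library reached the level of either total RNA library, which held for 14.9% of all genes tested. Its log2 fold change was -0.40 ± 0.098 (SE, adjusted p 9.2e-04), from log2 ratios of -0.38 and -0.43. In unpaired fits it moved less than Cacna1a, from -0.52 without IP replicate 1 to -0.30 without IP replicate 2. Its replicates also differed less. In total RNA, replicate 2 minus replicate 1 was -0.17 on the log2 scale, against -0.63 for Cacna1a.

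Cacna1c measured 164 and 99.0 CPM in the IP and 208 and 129 CPM in total RNA, again lower in the IP within each replicate and overlapping between the groups. Its log2 fold change was -0.36 ± 0.10 (SE, adjusted p 0.0056), from log2 ratios of -0.34 and -0.38. In unpaired fits it ran from -0.77 without IP replicate 1 to 0.027 without total RNA replicate 1. In these 3 genes the log2 ratios of the replicates differed by less than the fitted standard error.

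Cacna1e did not pass. It measured 344 and 233 CPM in the IP and 349 and 285 CPM in total RNA, and the replicates differed, with log2 ratios of -0.020 and -0.29. Its log2 fold change was -0.16 (95% interval -0.35 to 0.037), with an adjusted p of 0.324.

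Among the alpha2delta subunits, Cacna2d1 had the highest ratio of the 10 members. It measured 173 and 168 CPM in the IP and 150 and 151 CPM in total RNA, so the groups did not overlap, as in the same direction in 16.9% of all genes tested. Its log2 fold change of 0.18 (95% interval -0.018 to 0.38) had an adjusted p of 0.249 and did not pass. Cacna2d2 measured 53.4 and 38.4 CPM in the IP and 54.7 and 37.7 CPM in total RNA, with a log2 fold change of -0.0064 (95% interval -0.25 to 0.24). Cacna2d3, at 144 and 120 CPM in the IP and 147 and 140 CPM in total RNA, had a log2 fold change of -0.12 (95% interval -0.32 to 0.083).

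The beta subunits lay near or below 0. Cacnb1 measured 77.7 and 92.7 CPM in the IP and 84.7 and 90.6 CPM in total RNA, with a log2 fold change of -0.044 (95% interval -0.26 to 0.17). Cacnb4 measured 69.4 and 92.7 CPM in the IP and 76.5 and 87.0 CPM in total RNA, with a log2 fold change of -0.020 (95% interval -0.24 to 0.20). For both of them the log2 ratio was below 0 in replicate 1 and above 0 in replicate 2. Cacnb3 had the lowest ratio of IP to total RNA among the auxiliary subunits, from 76.5 and 64.1 CPM in the IP and 91.2 and 72.7 CPM in total RNA. Its log2 fold change was -0.22 (95% interval -0.44 to 0.00093), with an adjusted p of 0.194.

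**Figure D3:**
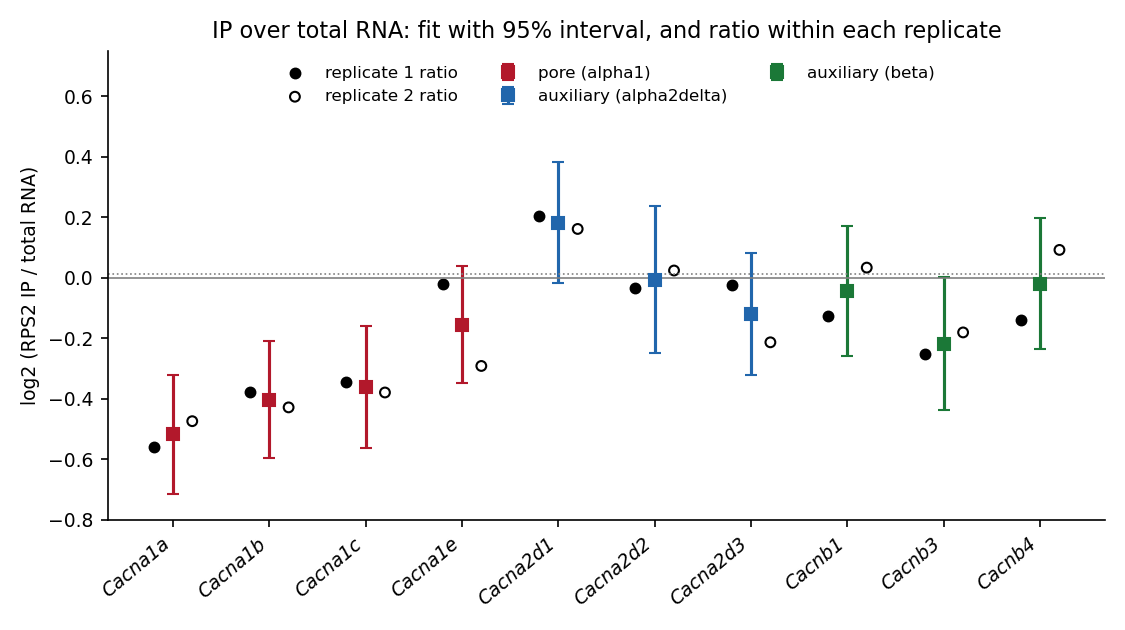
Log2 ratio of RPS2 IP to total RNA for each subunit mRNA; squares are the fitted fold change with its 95% interval, filled circles the ratio within replicate 1 and open circles within replicate 2, and the dotted line is the median of all genes tested (0.011). The intervals of Cacna1a, Cacna1b and Cacna1c lie below 0 and those of the other 7 members include it.

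As classes, the median log2 fold change was -0.38 for pore genes and -0.032 for auxiliary genes, against 0.011 over all genes tested. The alpha2delta median was -0.0064 and the beta median -0.044. The difference of pore minus auxiliary medians was -0.35, from -0.28 in replicate 1 and -0.43 in replicate 2. All 4 pore genes had a ratio below 0 in both replicates, as did 2 of the 6 auxiliary genes and 32.2% of all genes tested. With 1 library left out and no pairing, that difference ran from -0.56 without IP replicate 1 to -0.017 without total RNA replicate 1. Without IP replicate 2 it was -0.12. The difference between the replicates enters these unpaired values. The difference between the classes was not tested, since genes are not replicates, and with 2 pairs an exact sign-flip test could not go below p = 0.5.

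The pore and auxiliary mRNAs also differed in sequence features. Over all genes tested the log2 fold change fell with GC content (Spearman correlation across 12328 genes of -0.315) and with exonic length (-0.171), correlations across genes that share the same libraries. Pore genes had a median GC content of 53.7% and a median exonic length of 16300 bases, auxiliary genes 51.0% and 8334 bases, and all genes tested 50.5% and 4672 bases. Cacna1a has a GC content of 57.2%, above 85.9% of genes tested, and a length above 92.5% of them. Cacnb1 and Cacnb3, both with a GC content of 59.4%, are as GC-rich or more but short, at 4529 and 4010 exonic bases. Cacna2d1 (42.4%) and Cacnb4 (39.7%) are AT-rich and long, at 12416 and 8963 bases. Cacna2d3 has 46.5% GC and 8720 bases. Cacna2d2 is both GC-rich and long, at 55.4% and 7947 bases, above 76.9% and 79.9% of genes tested. Its GC content exceeds that of Cacna1b (54.4%) and Cacna1c (52.9%), yet its log2 fold change was -0.0064. The coding sequence of the principal annotated transcript was 59.1% GC in Cacna1a, 55.6% in Cacna1b, 53.8% in Cacna1c and 53.0% in Cacna1e. The auxiliary genes ranged more widely and overlapped them, at 59.4% in Cacnb1, 58.9% in Cacnb3, 55.8% in Cacna2d2, 51.0% in Cacnb4, 49.2% in Cacna2d3 and 43.4% in Cacna2d1.

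**Figure D4:**
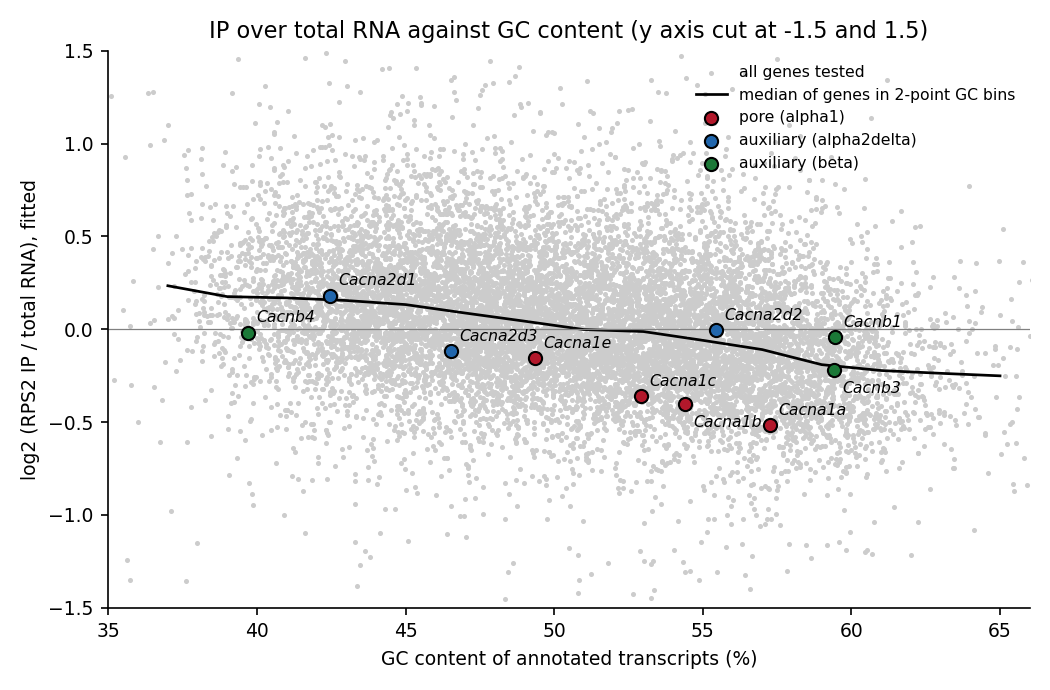
Fitted log2 ratio of RPS2 IP to total RNA against the GC content of annotated transcripts for the genes tested (grey; 119 lie outside the plotted range), with the 10 subunits coloured by class and the median of bins of 2 percentage points (at least 20 genes each) as a line. The line falls from 0.23 at 37% to -0.25 at 65%. All the pores lie below it, as do the auxiliary Cacna2d3, Cacnb4 and, narrowly, Cacnb3. Cacna2d1, Cacna2d2 and Cacnb1, the last at -0.044, lie above it.

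The calls of the pore genes were lost with a joint correction for these features. With an offset for GC content and length together, 0 of the 10 members were called, and Cacna1a was at -0.14 (adjusted p 0.523), Cacna1b at -0.16 (adjusted p 0.418) and Cacna1c at -0.0064 (adjusted p 0.986). In that fit 2.83% of all genes tested were called lower and 3.89% higher, fewer than without the offset. Cacna1e turned to 0.092, and the difference of pore minus auxiliary medians shrank to -0.12. With an offset for GC content alone, where 5.78% of all genes tested were called lower, 3 pore genes were, with Cacna1a at -0.41, Cacna1b at -0.38 and Cacna1c at -0.37. With an offset for length alone, where 7.82% of all genes tested were called lower, 2 were, Cacna1a at -0.46 and Cacna1b at -0.36, while Cacna1c at -0.26 had an adjusted p of 0.0791. Whether GC content and length set the ratio of these mRNAs was not tested.

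**Figure D5:**
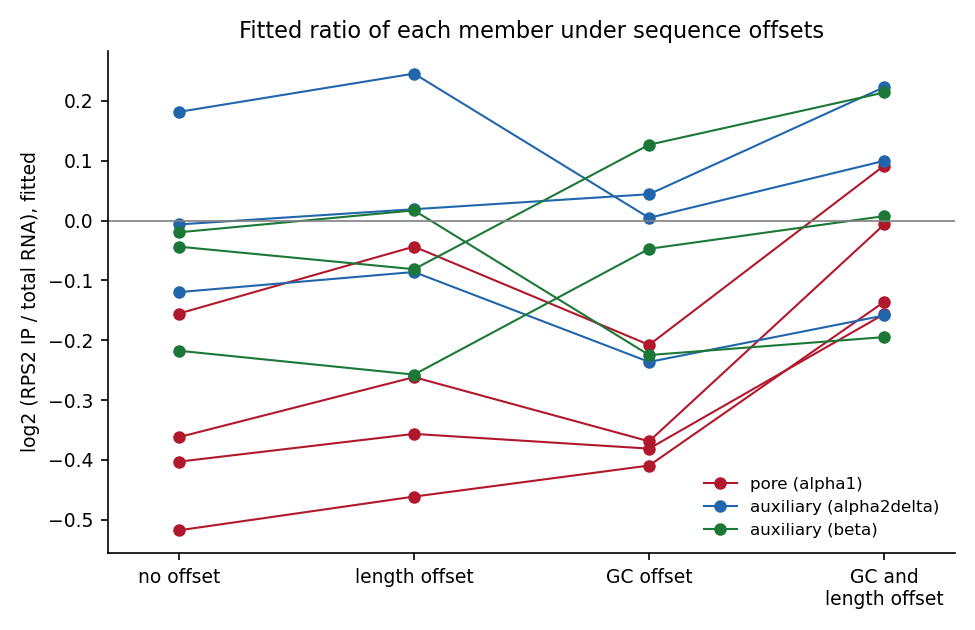
Fitted log2 ratio of RPS2 IP to total RNA for each of the 10 subunits without an offset, with an offset for length, for GC content, and for both; each line is 1 gene, coloured by class. Cacna1a moves from -0.52 without an offset to -0.46, -0.41 and -0.14, and with both offsets 5 of the 10 genes lie above 0 and 5 below.

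The other pore genes of the family were read in the same fit, which called 7.55% of all genes tested lower and 6.63% higher. Of 6 further alpha1 genes 5 were tested, and 3 fell and 0 rose. These 3 are the T-type pores, which open at low voltage and do not need a beta subunit. Cacna1i, the most counted, was at -0.44 ± 0.098 (SE, adjusted p 2.5e-04), from 418 and 209 CPM in the IP and 569 and 282 CPM in total RNA. Cacna1g was at -0.61 ± 0.099 (adjusted p 1.2e-07) and Cacna1h at -0.62 ± 0.11 (adjusted p 3.8e-06). Cacna1d, an L-type pore, was at -0.32 (adjusted p 0.0854), and Cacna1s, the pore of skeletal muscle, held 8 to 16 counts per library. Over the alpha1 genes together 6 of the 9 tested were called lower and 0 higher, with a median of -0.44. Once the GC content and length offset was applied 0 were called, with a median of -0.16. That fit called 2.83% of all genes tested lower and 3.89% higher. The T-type pores are GC-rich, at 58.1% to 60.3%.

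Gamma subunits and the related TARPs, which mainly escort AMPA receptors, gave no lower call. Of 8 listed 6 were tested, and 2 rose and 0 fell, with a median of -0.0045 on the log2 scale. Beside them, 6.63% of all genes tested were called higher and 7.55% lower. Cacng5 was at 0.47 ± 0.14 (SE, adjusted p 0.0113) and Cacng7 at 0.35 ± 0.11 (adjusted p 0.0186). With the offset Cacng7 was at 0.37 (adjusted p 0.0247) and Cacng5 at 0.41 (adjusted p 0.0617). The remaining auxiliary genes were Cacnb2, at 0.14 with an adjusted p of 0.727, and Cacna2d4, which held 2 to 9 counts per library.

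Proteins that tie these channels to release sites or regulate them went both ways. Of 30 listed 29 were tested, and 7 rose and 6 fell, with a median of -0.0011. The shares over all genes tested were 6.63% higher and 7.55% lower. Those that fell were led by the long active zone scaffolds Bsn, at -0.65 (adjusted p 3.5e-07), and Pclo, at -0.39 (adjusted p 0.0017), and by Stac2, an L-type channel regulator, at -0.33 (adjusted p 0.0289). Those that rose included Calm3, at 0.61 (adjusted p 1.1e-07), which encodes the calcium sensor calmodulin bound to the pore's tail, and Stx1a, a SNARE protein that binds presynaptic channels, at 0.60 (adjusted p 8.2e-07). With the offset 4 of the 29 were called higher, Calm3 at 0.60 and Stx1a at 0.67 among them, and Rims1 lower, at -0.35, while Bsn was at -0.13. The offset fit called 3.89% of all genes tested higher and 2.83% lower. Calm3 has related copies elsewhere in the genome, and reads placed at several loci were not counted, so its level is uncertain.

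Genes of calcium release and clearance act on the calcium that the channels admit. They gave 1 higher and 4 lower of 19 tested, with a median of -0.15, beside 6.63% higher and 7.55% lower over all genes tested. Ryr3, a release channel of the endoplasmic reticulum, was at -0.57 (adjusted p 0.0017), Atp2b3, a calcium pump of the plasma membrane, at -0.34 (adjusted p 0.0152) and Itpr1, the main neuronal inositol trisphosphate receptor, at -0.33 (adjusted p 0.0105). Hpca, a calcium sensor, was at 0.28 (adjusted p 0.0371). With the offset Hpca was called higher, at 0.33, and the buffer Calb1 lower, at -0.85, while Ryr3 was at -0.39 (adjusted p 0.0824).

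Other voltage-gated families stood beside the calcium channels as follows. Of the 8 sodium channel subunits tested 2 were called higher and 0 lower, with a median of 0.077 on the log2 scale, and the 2 were the auxiliary genes Scn3b (0.41) and Scn4b (0.58). Their median exonic length was 8304 bases and their median GC content 49.3%. Of 69 genes tested with symbols that start with Kcn, mostly potassium channel subunits, 8 were called lower and 5 higher. The 5 included the non-coding Kcnq1ot1. The median of the 69 was -0.0034, at a median length of 4833 bases and 53.4% GC. With the offset 1 of the sodium channel genes, Scn4b, was called higher, and of the Kcn genes 6 were called higher and 2 lower. The balance of calls also turned round over all genes tested, from 6.63% higher and 7.55% lower to 3.89% and 2.83%. No test was made between the families.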

How the data were processed

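The deposited values are raw read counts per gene. The authors made them with featureCounts 1.5.3, per the file headers by strand on an mm10 annotation and without reads at several loci or in several genes. Reads had been trimmed with cutadapt 1.18 and aligned end to end with STAR 2.5.2b, up to 10 loci. No duplicate removal is named, so intervals do not cover PCR error. Of 31053 gene identifiers 31011 carried a GENCODE M21 symbol. The other deposited column used was exonic length in bases.

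IP was tested against total RNA with edgeR 4.0.16 under R 4.3.3 (filterByExpr, TMM, glmQLFit and glmQLFTest, two-sided, Benjamini-Hochberg adjustment over 12336 genes, threshold 0.05). The replicate number was a block, since the study took total RNA from the samples used for the IP; deviations from the group means correlated at 0.733 between same-numbered libraries. The blocked fit has 1 residual degree of freedom per gene and the prior degrees of freedom were estimated as infinite, so its p-values rest on a shared dispersion trend. SE is the absolute log2 fold change over the root of the F statistic. Ratios within a replicate are differences of log2 CPM with a prior count of 2. Whether replicates were separate cultures is not given in the sources used here, so p-values may measure technical spread. On simulated data of 12336 genes with 200 changed, the blocked fit recovered 81% of changes of 1 and 34% of changes of 0.5 (log2), and the unpaired fit 0%. These counts were drawn from the blocked fit, with its replicate difference kept and the same dispersion for every gene (coefficient of variation 7.93%). The simulation therefore cannot decide between the blocked and the unpaired fit.

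GC content was taken over annotated transcripts. The offset for GC content and length was a loess fit (span 0.3) of each library's log2 deviation. DESeq2 1.42.0 and limma-voom 3.58.1 were alternatives. The members, lists, markers and naming rule (all members; of each list the called genes, at most 3 per direction, and the most counted further channel subunit) were chosen with earlier results of these data known. Cldn5, Gfap and Gm42418 were named after their values were seen, as were Calb1, Cacna1d, Cacna1s, Cacnb2, Cacna2d4, Rims1, Scn3b, Scn4b and Kcnq1ot1. The sodium and potassium channel families were set for context by counts and medians. Some genes that the rule would name are not reported here.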

Additional observations from a re-analysis of the deposited data

How the results depend on the processing

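The 2 libraries per group and the dispersion shared by all genes limit these results, and the class difference has no test. Of 13 fits with the replicate block, Cacna1a and Cacna1b were called lower in the IP in 11 and Cacna1c in 10; the exceptions were the 2 joint offsets and, for Cacna1c, the length offset. DESeq2 with the block called the same 3 genes, Cacna1c at an adjusted p of 0.0486. No alternative called a member higher. Without the replicate block 0 members were called lower in place of 3, with Cacna1a at -0.53 (unadjusted p 0.157), Cacna1b at -0.40 (0.108) and Cacna1c at -0.36 (0.362), and the pore minus auxiliary difference was -0.35. With the joint GC and length offset 0 members were called lower and the difference was -0.12, and with wider smoothing, an alternative chosen after seeing the data like the single offsets, 0 and -0.15. Over all genes tested, 818 were called higher and 931 lower, against 480 and 349 with the joint offset. Library totals gave 283 and 878, and the fit without the block 0 and 0. DESeq2 gave 158 and 382, but it left 7653 of the 12336 genes without an adjusted p. The cause of these changes beyond the offset itself was not tested.

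Each library was also left out in turn, in fits without pairing in which a lone library is assumed to vary like the other group. The difference between the replicates enters such fits, so their ranges are not the spread of the ratio within replicates. The pore minus auxiliary difference in these fits ran from -0.56 to -0.017. The log2 fold change then ran from -0.83 to -0.18 for Cacna1a, -0.52 to -0.30 for Cacna1b, -0.77 to 0.027 for Cacna1c, -0.45 to 0.11 for Cacna1e, 0.16 to 0.20 for Cacna2d1, -0.27 to 0.28 for Cacna2d2, -0.25 to 0.0054 for Cacna2d3, -0.18 to 0.079 for Cacnb1, -0.38 to -0.049 for Cacnb3 and -0.24 to 0.18 for Cacnb4.

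By CPM without length 2 of the 10 members kept their place in the order of levels. The remaining changes of sign were in uncalled members. The joint offset gave 0.092 for Cacna1e, 0.22 for Cacna2d2, 0.21 for Cacnb1 and 0.0076 for Cacnb3, and with wider smoothing 0.086, 0.21 and 0.19 for the first 3 of these. GC content alone gave 0.044 for Cacna2d2 and 0.13 for Cacnb1. Length alone gave 0.019 for Cacna2d2 and 0.017 for Cacnb4. Without the low-count filter Cacna2d2 was at 0.017 and Cacnb4 at 0.0028, with at least 10 counts Cacna2d2 was at 0.0034, and with libraries thinned to 4899718 counts they were at 0.022 and 0.015. Pair 2 alone gave 0.024 for Cacna2d2, 0.033 for Cacnb1 and 0.092 for Cacnb4.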
